A study of Mus musculus with 4 samples.

Results

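Testis enzyme genes of glycolysis, pyruvate oxidation and phosphoribosyl pyrophosphate (PRPP) synthesis were set beside their somatic paralogues in testis cells of a Znhit1 knockout mouse. ZNHIT1 belongs to the SRCAP complex, which exchanges histone H2A for its variant H2A.Z in chromatin, and the series set out to learn what its loss does in germ cells. The 10 genes were Ldhc, Ldhal6b and Ldha, Pgk2 and Pgk1, Pdha2 and Pdha1, Gapdhs and Gapdh, and Prps1l1. They were taken by symbol from the 32285 genes of the count matrix, and all 10 were found. Prps1 is given beside Prps1l1 as its somatic counterpart. Droplet 3' single-cell RNA sequencing had been done on testis in 4 groups of 1 library each, genotypes Znhit1_KO and CTRL at postnatal days 16 and 35. Only the counts of the Znhit1_KO library of day 35 were analysed here, so no value compares genotypes or ages. The agent, promoter and cell type of the deletion, and the number of animals behind the library, are not given in the sources used here.

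Glycolysis turns glucose into pyruvate. Phosphoglycerate kinase and glyceraldehyde-3-phosphate dehydrogenase are enzymes of its later steps, lactate dehydrogenase interconverts pyruvate and lactate, and the pyruvate dehydrogenase complex feeds pyruvate into mitochondria. Meiotic and later male germ cells make their own forms of several of these enzymes. Pgk2, Pdha2 and Prps1l1 are autosomal copies of the X-linked genes Pgk1, Pdha1 and Prps1, and the X chromosome is silenced in spermatocytes at pachytene, the stage of meiotic prophase in which homologous chromosomes are fully paired. Sertoli cells, the somatic nurse cells of the tubule, supply germ cells with lactate.

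On mm10, annotated by GENCODE, Ldhc lay at chr7:46861203-46878142 and Ldha at chr7:46841475-46855627, both on the plus strand, with 5575 bases between the end of Ldha and the start of Ldhc. Pgk2 spanned 1626 bases on chromosome 17 and Pgk1 16600 bases on chromosome X. Pdha2 spanned 2352 bases on chromosome 3 and Pdha1 16205 bases on chromosome X. Prps1l1 spanned 1676 bases on chromosome 12 and Prps1 19528 bases on chromosome X. Each of these 3 autosomal copies therefore covered a far shorter stretch than its X-linked counterpart. Ldhal6b spanned 1445 bases on chromosome 17, Gapdhs 13907 bases on chromosome 7 and Gapdh 4753 bases on chromosome 6.

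Promoters of 5 testis forms that were higher in pachytene-like cells, and of the X-linked Pgk1 for comparison with Pgk2, are printed 5′ to 3′ on the gene's strand, from RefSeq on GRCm38.p6. A promoter was found for 9 of the 10 genes, all but Prps1l1. Each stretch holds up to 250 bases before the transcription start, without bases that GENCODE places inside the gene. Capitals mark matches on either strand to 4 motifs, a cyclic AMP response element (TGACGTCA), a GC box (GGGCGG), the MYB core (CAACNG) and a TATA box (TATAAA).
Ldhc, chr7:46861013-46861202, plus strand: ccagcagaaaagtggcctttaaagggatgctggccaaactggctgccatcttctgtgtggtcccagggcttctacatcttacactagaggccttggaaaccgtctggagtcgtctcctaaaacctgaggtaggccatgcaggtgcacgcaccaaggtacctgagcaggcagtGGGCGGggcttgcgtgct
Ldhal6b, chr17:5418768-5419017, minus strand: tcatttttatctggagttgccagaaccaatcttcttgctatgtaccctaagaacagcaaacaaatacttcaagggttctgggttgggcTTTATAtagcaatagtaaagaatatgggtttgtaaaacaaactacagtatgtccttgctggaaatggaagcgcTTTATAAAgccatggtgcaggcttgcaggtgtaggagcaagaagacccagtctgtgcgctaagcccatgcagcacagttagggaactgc
Pgk2, chr17:40208641-40208859, minus strand: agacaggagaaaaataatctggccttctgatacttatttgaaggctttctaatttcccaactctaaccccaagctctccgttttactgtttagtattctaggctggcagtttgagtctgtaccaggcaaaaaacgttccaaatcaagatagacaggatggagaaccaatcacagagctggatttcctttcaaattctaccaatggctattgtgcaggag
Pgk1, chrX:106186850-106187099, plus strand: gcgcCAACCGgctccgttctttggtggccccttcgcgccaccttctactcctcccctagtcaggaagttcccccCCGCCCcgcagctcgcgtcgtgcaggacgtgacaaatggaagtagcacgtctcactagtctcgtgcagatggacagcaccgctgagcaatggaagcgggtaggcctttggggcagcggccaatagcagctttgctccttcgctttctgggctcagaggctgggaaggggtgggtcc
Pdha2, chr3:141212356-141212605, minus strand: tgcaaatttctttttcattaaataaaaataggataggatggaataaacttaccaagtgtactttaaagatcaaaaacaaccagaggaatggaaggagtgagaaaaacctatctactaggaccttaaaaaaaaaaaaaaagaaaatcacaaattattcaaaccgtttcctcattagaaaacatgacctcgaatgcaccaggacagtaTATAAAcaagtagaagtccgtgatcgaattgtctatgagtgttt
Gapdhs, chr7:30743682-30743931, minus strand: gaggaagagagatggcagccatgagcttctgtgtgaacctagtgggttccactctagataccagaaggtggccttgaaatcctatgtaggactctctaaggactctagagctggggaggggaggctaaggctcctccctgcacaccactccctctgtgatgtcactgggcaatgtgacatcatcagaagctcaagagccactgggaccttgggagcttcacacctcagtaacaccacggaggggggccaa

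Over 32851 promoter windows of 250 bases, 12.4% held the TATA box, 32.7% the GC box, 29.3% the MYB core and 1.55% the cyclic AMP response element. TATA box letters were in the windows of Pdha2 and Ldhal6b, where in Ldhal6b the letters of 2 of 3 matches overlap as the motif read on both strands. The Pgk2 and Gapdhs windows held none of the 4 motifs, which says only that these letters were not there. Motifs and CpG were counted over all 250 bases, of which the last 60 of Ldhc and 31 of Pgk2 are not printed. The unprinted bases of Ldhc hold 2 MYB core matches. CpG dinucleotides numbered 8 in the Ldhc window against 25 in that of Ldha, and 3 in Pgk2 against 17 in Pgk1. They numbered 4 in Pdha2 against 15 in Pdha1, and 1 in Gapdhs against 8 in Gapdh. The median of all windows was 6, and the RefSeq windows of Ldha and Gapdh lie inside the genes as GENCODE draws them. In all 4 pairs the window of the testis form thus held fewer CpG than that of its somatic paralogue.

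The library held 72459160 unique molecular identifiers (UMIs, each 1 captured RNA molecule) in 15306 cell barcodes, and 7886 cells with a median of 4616 UMIs were used. Between 45 and 81 barcodes were shared by any pair of the 4 libraries. Clusters, built without the 10 genes, were named from marker genes with the ending -like, and germ clusters are numbered in the order of their pachytene minus spermatogonium marker scores. There were 1609 spermatogonium-like cells in 3 clusters, 2336 early-prophase-like cells in 4, 449 pachytene-like cells in 2 (295 and 154 cells) and 2605 somatic-like cells. Early-prophase-like cluster 1 had the spermatogonium marker Stra8, and no marker of its own list, among its 10 leading genes. No marker of their own list was among those of early-prophase-like cluster 4 and both pachytene-like clusters either, and haemoglobin genes were among the leading genes of spermatogonium-like cluster 3 and early-prophase-like clusters 2 and 3. The marker score of pachytene-like cluster 2 was 3.14 for pachytene and 3.10 for round spermatid, a near tie. In this cluster, 7 of 9 round spermatid markers were detected and summed to 163 CPM, against 63.9 CPM in cluster 1, while pachytene markers summed to 8779 and 6374 CPM. Early-prophase markers summed to 7154 CPM in cluster 2 and to 12884 CPM in cluster 1, there above the pachytene sum. The marker score of cluster 1 was 1.85 for pachytene and 1.09 for early prophase. Znhit1 itself had 2.48 CPM in germ-cell-like cells and 15.7 CPM in somatic-like cells, but a 3' count need not lie in the deleted stretch and does not check the label.

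Levels are in CPM, the UMIs of a gene divided by all UMIs of the cells in a cluster and multiplied by 1000000. Since 3' counting takes 1 end per molecule, levels were not divided by gene length. With 1 library there was no test, and every 95% interval covers counting error only, not animals. Over the last 500 bases of the annotated transcripts, no 50-base window was common to a gene and its paralogue in the pairs above. In Gapdh 63.2% of these windows, in Ldha 12.8% and in Pgk1 7.32% also occurred in other genes, mostly pseudogenes, so these 3 levels are uncertain by whatever counting did with such reads.

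**Figure D1:**
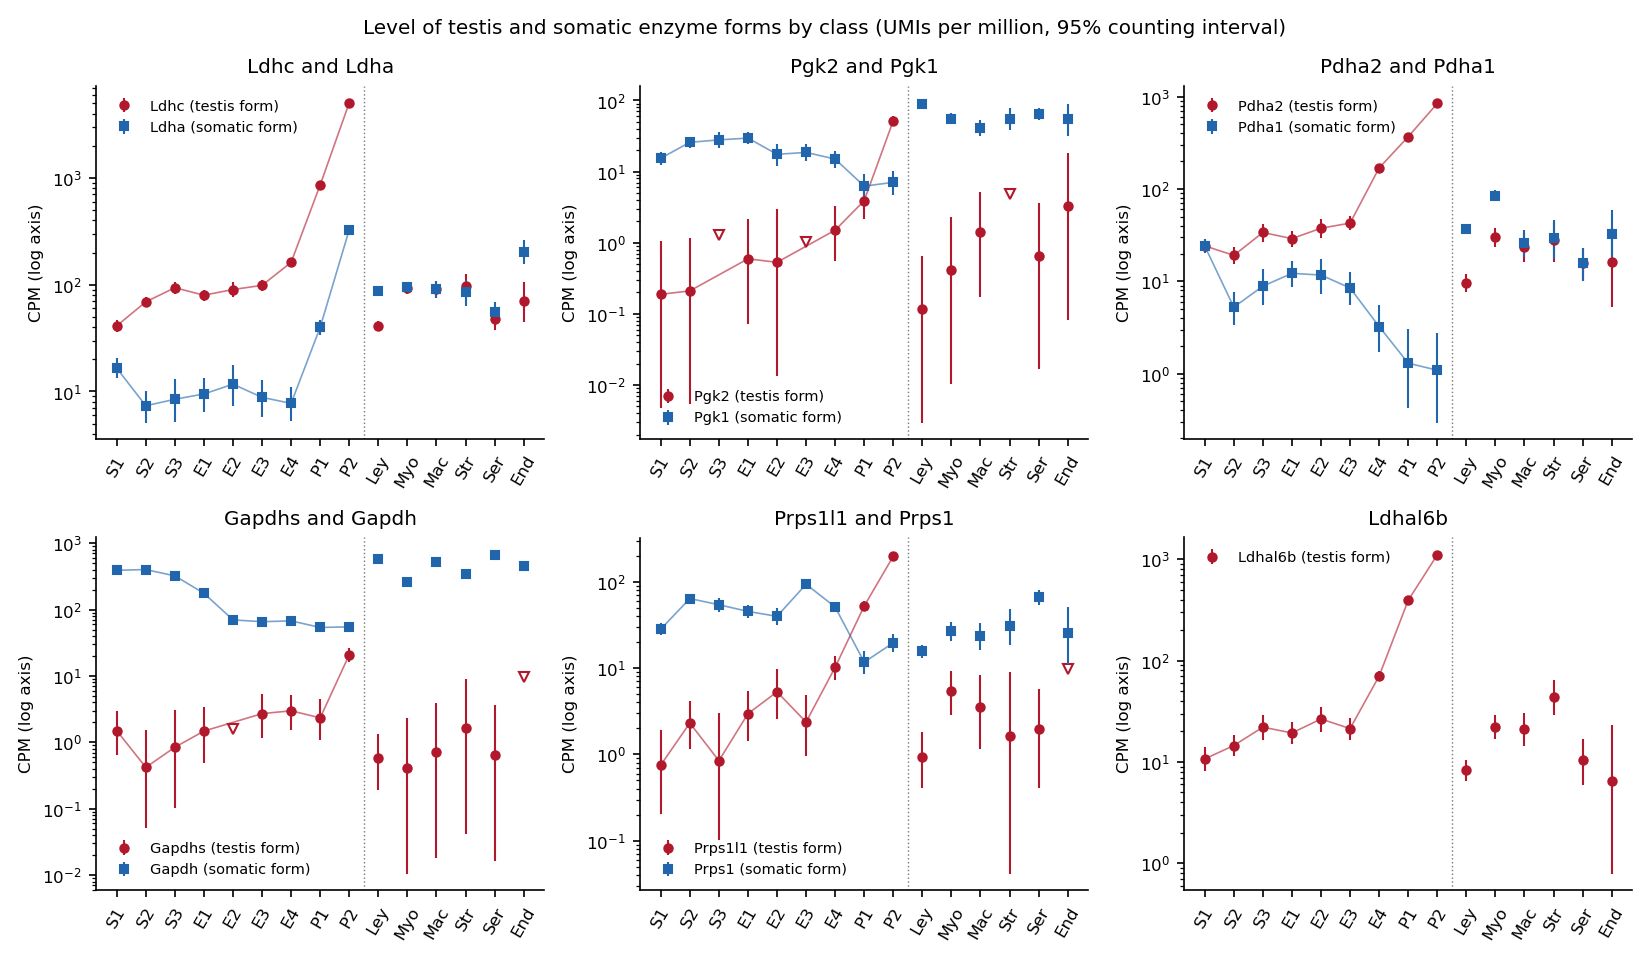
Level of each gene (CPM, log axis) in germ clusters S1 to S3 (spermatogonium-like), E1 to E4 (early-prophase-like) and P1 to P2 (pachytene-like) and in somatic-like classes, testis forms in red and somatic forms in blue, with 95% counting intervals and open triangles for 0 UMIs at the 3-count floor. Ldhc is at 5063 CPM in P2 and 861 CPM in P1, while Pgk1 and Pdha1 are at 7.06 and 1.09 CPM in P2. Endothelial-like cells are drawn without the 1 cell of high Ldhc count, and lymphocyte-like and unnamed cells are left out.

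The lactate dehydrogenase genes Ldhc and Ldhal6b had the highest levels of the 10 in pachytene-like cells. Ldhc, the subunit of the testis isoenzyme, was at 41.2, 69.1 and 93.7 CPM in spermatogonium-like clusters 1 to 3. It was at 79.7, 90.1, 98.6 and 162 CPM in early-prophase-like clusters 1 to 4, and at 861 and 5063 CPM in pachytene-like clusters 1 and 2. The level was thus no more than 98.6 CPM before early-prophase-like cluster 4 and highest in the last cluster, which held 18647 Ldhc UMIs in 154 cells. In early-prophase-like cluster 4 it was 1.65 (1.43 to 1.90) times that of cluster 3, in pachytene-like cluster 1 it was 5.30 times that of early-prophase-like cluster 4, and in pachytene-like cluster 2 it was 5.88 (5.67 to 6.10) times that of cluster 1.

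Ldhal6b, a lactate dehydrogenase-like gene, was also highest in the pachytene-like clusters, at a lower level. It had 10.7 to 22.0 CPM in the 3 spermatogonium-like clusters, 19.3, 26.5, 21.3 and 70.3 CPM in early-prophase-like clusters 1 to 4, and 393 and 1104 CPM in the pachytene-like clusters. Its ratio of early-prophase-like cluster 4 over cluster 3 was 3.29 (2.50 to 4.40), higher than that of Ldhc. In cluster 3 both genes were no higher than free RNA would give, at 0.807 times for Ldhal6b and 0.890 times for Ldhc. The ratio of pachytene-like cluster 2 over cluster 1 was 2.81 for Ldhal6b, lower than that of Ldhc.

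Ldha encodes the somatic subunit typical of muscle. It too was highest where Ldhc was highest. Ldha was at 16.5, 7.35 and 8.45 CPM in spermatogonium-like clusters 1 to 3, at 7.73 to 11.7 CPM in early-prophase-like clusters, and at 40.0 and 328 CPM in pachytene-like clusters 1 and 2. Its pooled level in pachytene-like cluster 2 was 8.19 (6.92 to 9.75) times that in cluster 1. It was 3.76 times the 87.1 CPM of Leydig-like cells, the testosterone-making cells of the interstitium. By single cells the gap was smaller, with a median cell at 162 CPM (quartiles 58.9 and 380.1) against 72.7 CPM in Leydig-like cells. Ldhc nevertheless held 95.5%, 95.6% and 93.9% of the UMIs of the pair in early-prophase-like cluster 4 and pachytene-like clusters 1 and 2. Both forms were thus higher together in the pachytene-like clusters. In early-prophase-like cluster 4 Ldha was not yet higher, at 7.73 CPM against 8.81 CPM in cluster 3. Its count there was 1.14 times (0.778 to 1.63) that expected from free RNA. The genes are neighbours on 1 strand, and whether reads of the Ldha locus start at its own promoter was not tested.

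Ldhb, the somatic subunit typical of heart, was at 36.4 to 91.6 CPM in the 9 germ clusters and 1066 CPM in Sertoli-like, 584 CPM in Leydig-like and 264 CPM in myoid-like cells. In germ-cell-like cells it was at 0.973 times the level expected from free RNA. Of the UMIs of Ldhc, Ldha and Ldhb together, Ldhc held 93.3% in pachytene-like cluster 2 and 5.80% in Leydig-like cells.

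Phosphoglycerate kinase was the pair in which the form with more counted UMIs differed between the pachytene-like clusters. Pgk2, the testis form, was at 0.188, 0.210 and 0 CPM in spermatogonium-like clusters 1 to 3 and at 0 to 1.5 CPM in the early-prophase-like clusters. It had 3.90 CPM (15 UMIs) in pachytene-like cluster 1 and 51.9 CPM (191 UMIs) in cluster 2. Pgk1, the somatic form, was at 15.4 to 27.9 CPM in the spermatogonium-like clusters, 29.6, 17.5, 18.6 and 15 CPM in early-prophase-like clusters 1 to 4, and 6.24 and 7.06 CPM in the pachytene-like clusters. Pgk2 thus held 9.09% of the UMIs of the pair in early-prophase-like cluster 4, 38.5% in pachytene-like cluster 1 and 88.0% in cluster 2. Between the pachytene-like clusters Pgk2 differed by a ratio of 13.3 (7.86 to 24.2, cluster 2 over cluster 1), the highest of the 9 of these genes with enough UMIs, while that of Pgk1 was 1.13. The change of the pair's share between those clusters therefore came with Pgk2, not with Pgk1.

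Pdha2 and Pdha1 encode the E1 alpha subunit of pyruvate dehydrogenase. Pdha2, the testis form, was at 24.2, 19.1 and 33.8 CPM in spermatogonium-like clusters 1 to 3, 29.0, 37.6, 42.7 and 169 CPM in early-prophase-like clusters 1 to 4, and 368 and 843 CPM in the pachytene-like clusters. Pdha1 was at 24.1, 5.25 and 8.87 CPM, then 12.2, 11.7, 8.47 and 3.24 CPM, then 1.30 and 1.09 CPM in the same clusters. Pdha2 held 50.2% of the UMIs of the pair in spermatogonium-like cluster 1, 98.1% in early-prophase-like cluster 4 and 99.9% in pachytene-like cluster 2.

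By counted UMIs, Pdha2 stood ahead of Ldhc along the germ clusters. Its ratio of early-prophase-like cluster 4 over cluster 3 was 3.97 (3.28 to 4.84), an interval that lies above the 1.65 (1.43 to 1.90) of Ldhc. Free RNA enters these 2 ratios unequally. Ldhc had 291 UMIs against 327 expected from it in cluster 3, and 651 against 295 in cluster 4. Pdha2 had 126 against 79.9 and 679 against 71.9, so the intervals do not compare expression alone. From pachytene-like cluster 1 to 2 the order was turned round, with a ratio of 2.29 (2.15 to 2.45) for Pdha2 and 5.88 (5.67 to 6.10) for Ldhc, cluster 2 over cluster 1. Of the UMIs of Pdha2 and Ldhc together, Pdha2 held 51.1% in early-prophase-like cluster 4, 29.9% in pachytene-like cluster 1 and 14.3% in cluster 2, against 19.6% in barcodes of under 1000 UMIs.

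Gapdhs, the sperm form of glyceraldehyde-3-phosphate dehydrogenase, was the lowest testis form in pachytene-like cells. It was at 0 to 2.99 CPM in all spermatogonium-like and early-prophase-like clusters, 2.34 CPM (9 UMIs) in pachytene-like cluster 1 and 20.9 CPM (77 UMIs) in cluster 2. Gapdh was at 391, 401 and 322 CPM in spermatogonium-like clusters 1 to 3, 176, 69.9, 65.7 and 67.6 CPM in early-prophase-like clusters 1 to 4, and 53.8 and 54.9 CPM in the pachytene-like clusters. Gapdh was therefore already low before Gapdhs was detected above a few UMIs. Gapdhs held 27.6% of the UMIs of the pair in pachytene-like cluster 2 and 4.17% in cluster 1, so that the somatic form kept most of them in both. The ratio of cluster 2 over cluster 1 was 8.94 (4.47 to 20.3) for Gapdhs and 1.02 (0.836 to 1.24) for Gapdh.

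Prps1l1 encodes a testis PRPP synthetase, which makes the sugar phosphate of nucleotide synthesis. It was at 0.752 to 2.31 CPM in the spermatogonium-like clusters, 2.96, 5.30, 2.37 and 10.2 CPM in early-prophase-like clusters 1 to 4, and 52.3 and 197 CPM in the pachytene-like clusters. Prps1 was at 28.2, 63.8 and 54.1 CPM, then 45.3, 39.7, 93.5 and 50.9 CPM, then 11.7 and 19.6 CPM in the same clusters. Prps1l1 held 16.7% of the UMIs of both in early-prophase-like cluster 4, 81.7% in pachytene-like cluster 1 and 91.0% in cluster 2. By counted UMIs, Prps1l1 thus held most of its pair in both pachytene-like clusters, and Pgk2 only in cluster 2. The Pgk2 share in cluster 1 rests on 15 UMIs of Pgk2 and 24 of Pgk1. Free RNA would give 0.965 of the former and 12.8 of the latter, so which pair changed over first cannot be told.

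**Figure D2:**
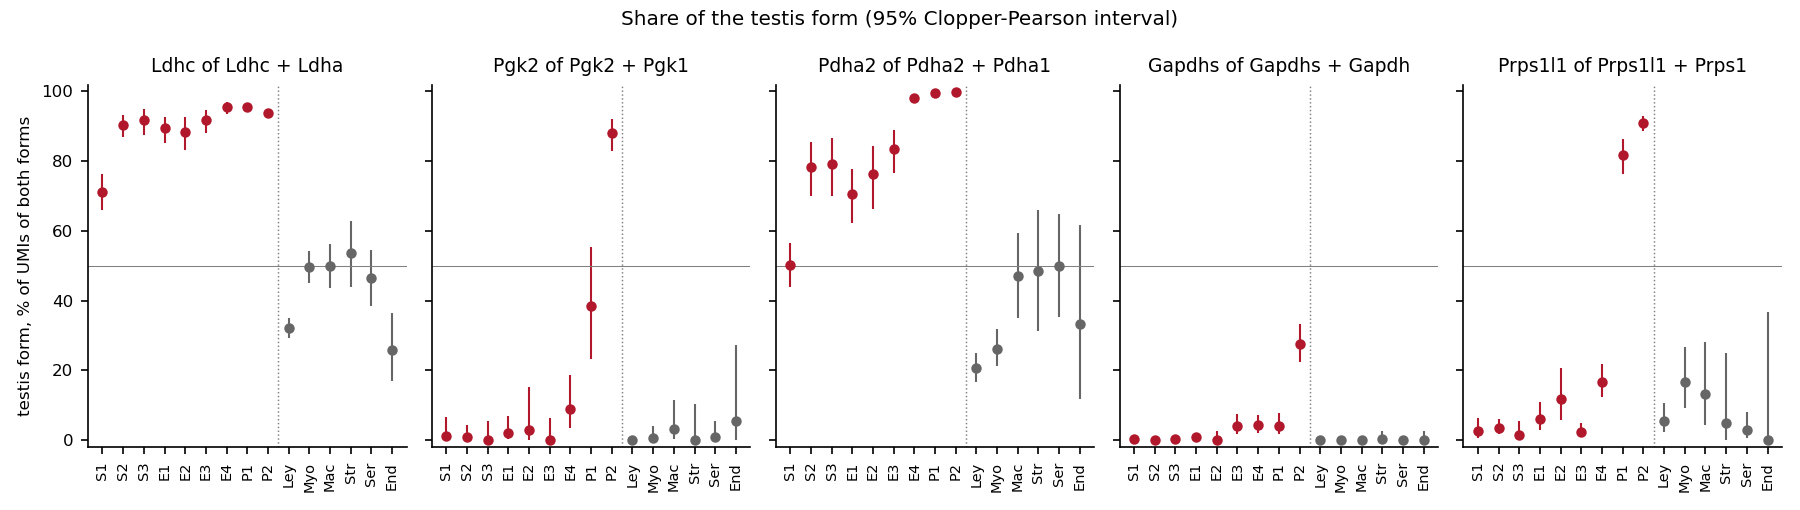
Share of the UMIs of each pair that belongs to the testis form (percent) by germ cluster and somatic-like class, with 95% Clopper-Pearson intervals. Pgk2 holds 88.0% in pachytene-like cluster 2 and 38.5% in cluster 1, and Gapdhs holds 27.6% in cluster 2. Endothelial-like cells are drawn without the 1 cell of high Ldhc count, and lymphocyte-like and unnamed cells are left out.

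Over all pachytene-like cells, Ldhc held 94.2% of the UMIs of Ldhc and Ldha (93.9 to 94.5) and Pdha2 held 99.8% of those of Pdha2 and Pdha1 (99.6 to 99.9). Pgk2 held 80.5% of its pair (75.1 to 85.1) and Gapdhs 17.4% (14.1 to 21.0). The order of the 4 shares was therefore Pdha2, Ldhc, Pgk2 and Gapdhs, with intervals that did not overlap. The share of Gapdhs was 6.73% when cells were limited to at most 5% mitochondrial UMIs, which left 178 pachytene-like cells, and 26.8% with free RNA subtracted.

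Between the stages as a whole, 7 of the 10 genes were higher by 2-fold or more in the pachytene-like cells than in the early-prophase-like ones, against 18.1% of 14832 genes with at least 20 UMIs. Another 2 were lower by 2-fold or more, against 28.7% of those genes. The median log2 ratio was 3.60 over the 10 genes and -0.34 over all tested. Ldhc was at 2917 CPM in pachytene-like and 113 CPM in early-prophase-like cells, or 25.8 times as high (24.4 to 27.3). For Ldha these levels were 181 and 9.08 CPM, which is 19.9 times as high (16.4 to 24.4). For Pgk2 they were 27.4 and 0.736 CPM, which is 37.2 times as high (19.2 to 82.4), a value that rests on 9 UMIs in early-prophase-like cells. The 7 higher genes were all 6 testis forms and Ldha, but with at most 5% mitochondrial UMIs the ratio of Gapdhs was 1.57, which leaves 6 of 10. With free RNA subtracted the ratio was 127 for Ldhc, 231 for Ldha and 92.9 for Pgk2. That of Ldha was also 40.4 with at most 5% mitochondrial UMIs and 10.1 with equal weight per cell, and its level in early-prophase-like cells was 1.09 times that expected from free RNA, a measure described further on.

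The lower pair were both X-linked. Pgk1 was at 6.64 CPM in pachytene-like and 20.3 CPM in early-prophase-like cells, 3.06-fold lower, and Pdha1 at 1.20 and 8.26 CPM, 6.91-fold lower. Prps1, also X-linked, was 3.73-fold lower. Genes of the X chromosome together took 1.77% of UMIs in early-prophase-like cluster 4, 0.499% and 0.881% in pachytene-like clusters 1 and 2, and 3.28% in somatic-like cells. The autosomal Gapdh was 1.79-fold lower in pachytene-like cells, with a ratio of 0.558 (0.497 to 0.625), but 0.805 without early-prophase-like cluster 1.

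Along the germ clusters, 3 of the 9 genes with enough UMIs were higher by 2-fold or more in early-prophase-like cluster 4 than in cluster 3, against 11.1% of all genes tested. These were Prps1l1, Pdha2 and Ldhal6b, while Pdha1 was lower by 2-fold or more, against 18.7%. In pachytene-like cluster 1, 6 of 9 were that much higher than in early-prophase-like cluster 4, against 10.3%, and Pgk1 was that much lower, against 12.9%. In pachytene-like cluster 2, 7 of 9 were that much higher than in cluster 1, against 15.7%, and 0 of 9 that much lower, against 10.1%. By counted UMIs, pachytene-like cluster 1 over early-prophase-like cluster 4 gave close ratios for Ldhal6b (5.59), Ldhc (5.30), Ldha (5.18) and Prps1l1 (5.11). That of Pdha2 was lower, at 2.17. Free RNA enters these ratios unequally. In early-prophase-like cluster 4, counted against expected UMIs were 282 against 70.3 for Ldhal6b, 651 against 295 for Ldhc and 31 against 27.1 for Ldha. For Prps1l1 they were 41 against 9.71, and for Pdha2 679 against 71.9. Close ratios therefore do not mean that expression differed alike. Gapdhs, with a ratio of 0.782, was not higher at that step. Its counts, 9 and 12 UMIs, are near the limit of what this depth can show.

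RNA released from broken cells is taken up by all droplets, so each level was set beside the one expected from such free RNA, estimated from barcodes of under 1000 UMIs. Ldhc was at 0.794 to 0.985 times the expected level in the 3 spermatogonium-like and the first 3 early-prophase-like clusters, 2.21 times in early-prophase-like cluster 4, and 16.9 and 120.5 times in the pachytene-like clusters. Summed over a cluster, the counts of Ldhc before early-prophase-like cluster 4 were thus no more than free RNA would give, although 3 cells of spermatogonium-like cluster 2 held 20 or more Ldhc UMIs, with up to 33. Its share of the pair with Ldha there, 71.3% in spermatogonium-like cluster 1, is no measure of expression. In the barcodes of under 1000 UMIs, Ldhc held 91.6% of that pair and Pdha2 88.1% of its pair.

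Pdha2 was at 1.92 times the expected level in spermatogonium-like cluster 1, 1.12 to 1.58 times in the next 5 clusters and 9.44 times in early-prophase-like cluster 4. Ldhal6b and Prps1l1 were at 4.01 and 4.22 times in early-prophase-like cluster 4. At that stage the multiples of these 3 genes were above the 2.21 of Ldhc. So was that of Gapdhs, 6.45 (3.33 to 11.3) on 12 UMIs, while Pgk2 was at 4.15 times (1.52 to 9.03) on 6 UMIs. A multiple depends on the expected count, which was 295 UMIs for Ldhc, 71.9 for Pdha2 and 70.3 for Ldhal6b. It was 9.71 for Prps1l1 and 1.86 for Gapdhs. The multiples therefore do not order the genes by level or by onset. Of the somatic forms, Gapdh was at 1.15 times the expected level in early-prophase-like cluster 3 and 14.7 times in spermatogonium-like cluster 1, and Pdha1 at 0.784 times in pachytene-like cluster 2 and 14.1 times in spermatogonium-like cluster 1. Pdha1 counts in pachytene-like cells thus reached no more than the free RNA level. Pgk1 stayed above it, at 2.57 times in pachytene-like cluster 2.

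**Figure D3:**
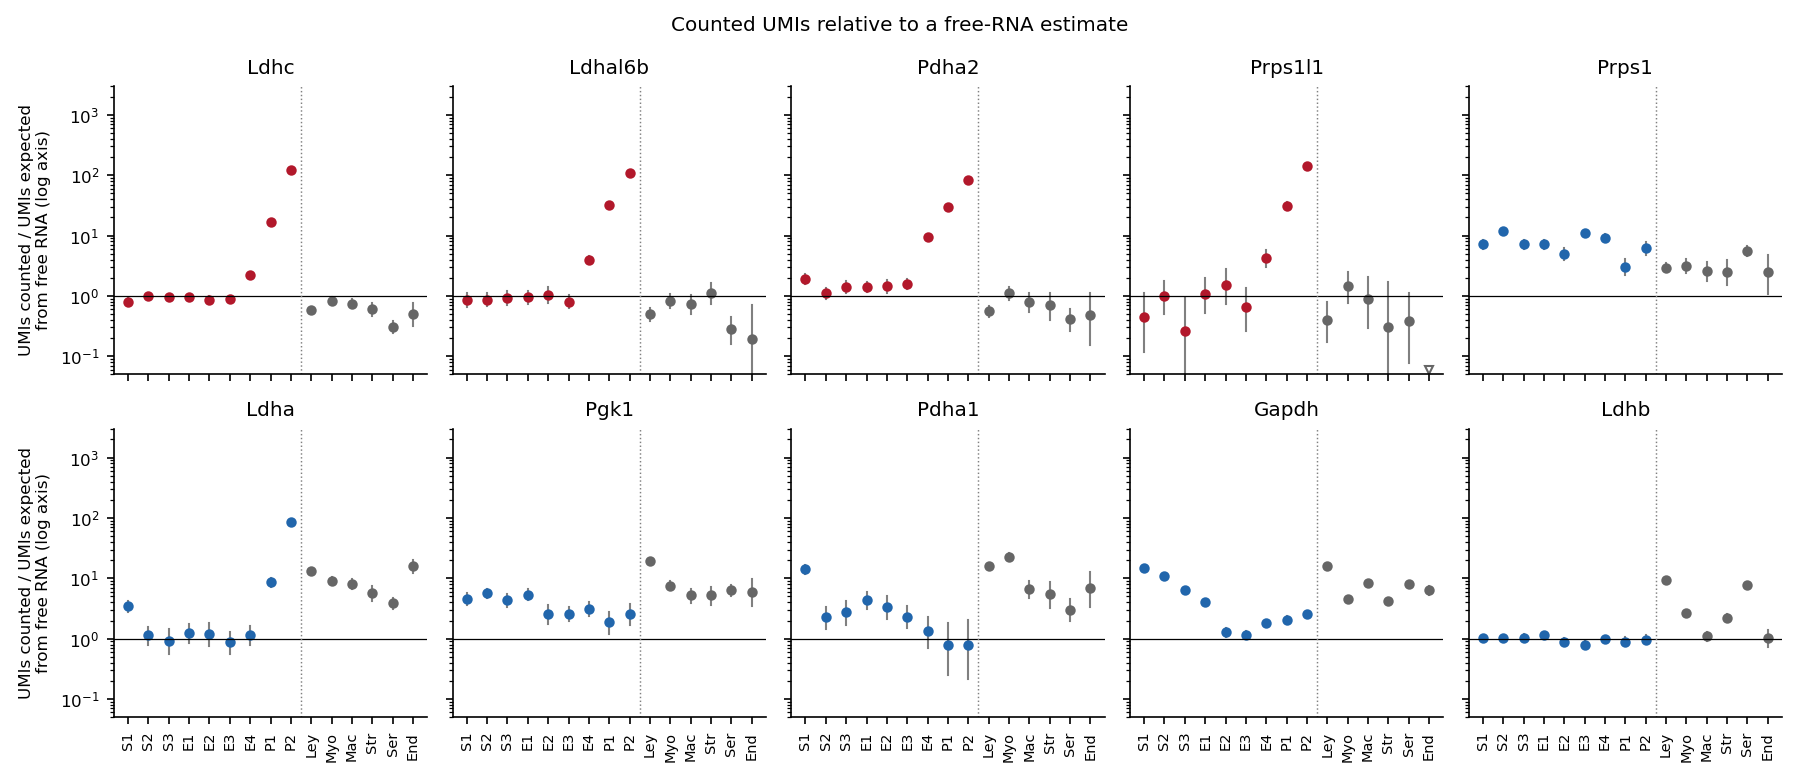
Observed level of 10 genes over the level expected from free RNA (log axis, 1 means no more than free RNA) by cluster and class, with open triangles at the bottom for 0 UMIs. Ldhc lies at 0.794 to 0.985 until early-prophase-like cluster 3 and at 120.5 in pachytene-like cluster 2, and Ldhb lies near 1 in germ-cell-like cells. Endothelial-like cells are drawn without the 1 cell of high Ldhc count, and lymphocyte-like and unnamed cells are left out.

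In single cells, the median Ldhc count was 1 UMI in early-prophase-like cluster 4 (range 0 to 12), 7 in pachytene-like cluster 1 (0 to 82) and 81.5 in cluster 2 (0 to 528). The cells of the 2 pachytene-like clusters overlapped in range but were far apart at the median. With each cell thinned to 2000 UMIs, a UMI of Ldhc was seen in 25.4% of cells of early-prophase-like cluster 4, 66.8% of pachytene-like cluster 1 and 100% of cluster 2, against 6.66% of Leydig-like cells, which should lack it. Unthinned, the shares were 61.0%, 95.9% and 99.4%, against 29.6%, at median depths of 6088, 10817 and 20436 UMIs, against 8813. Thinning left out 20 cells of early-prophase-like cluster 4, 2 of pachytene-like cluster 2 and 7 Leydig-like cells.

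Thinned shares for Pdha2 were 26.7%, 53.9% and 77.0% in the same germ clusters, against 1.98% in Leydig-like cells. Those of Pgk2 were 0.178%, 1.02% and 10.5%, and those of Gapdhs 0.534%, 0.678% and 3.29%, against 0 of 961 Leydig-like cells for both, which at the thinned depth allows a share with a UMI of up to 0.312%. Unthinned, the Leydig-like shares were 0.103% for Pgk2 and 0.517% for Gapdhs. Prps1l1 was seen in 1.07%, 7.12% and 21.1% of thinned cells, against 0.312%. At this depth most cells of the last cluster thus showed no UMI of Pgk2 or Gapdhs. Unthinned, Pgk2 had a UMI in 58 of 154 cells of pachytene-like cluster 2 (37.7%), with up to 18 in a cell, and Gapdhs in 33 of 154 (21.4%), with up to 6.

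**Figure D4:**
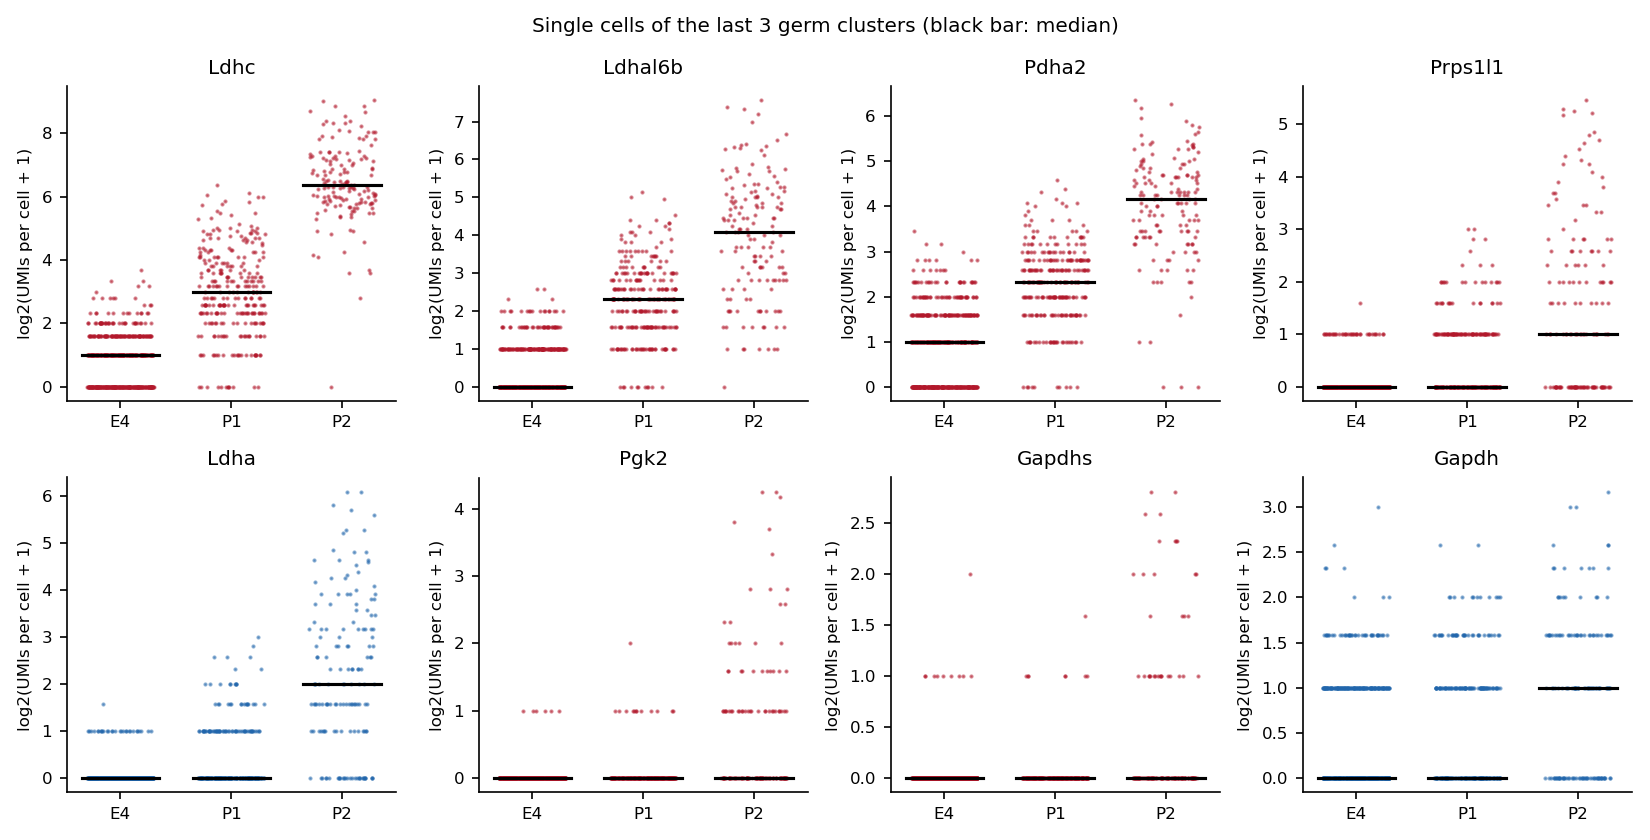
Counts of 8 genes in each cell of early-prophase-like cluster 4 (E4) and pachytene-like clusters 1 and 2 (P1, P2), as log2(UMIs per cell + 1), not scaled for depth, with a bar at the median. The Ldhc medians are 1, 7 and 81.5 UMIs, and Gapdhs has a UMI in 33 of 154 cells of P2.

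Ldhc and Ldha were often seen in the same cells, while few cells held a UMI of both forms in the other pairs. Cells were thinned to 5000 UMIs, which kept 147 cells of pachytene-like cluster 2 and 291 of cluster 1. Ldhc and Ldha were both seen in 61.9% of cells of cluster 2 and 14.1% of cluster 1. No thinned cell of cluster 2 lacked Ldhc, so its 61.9% is simply the share of cells with Ldha. Such shares depend on how often each form is detected. Whether forms occur together beyond that was not tested. Pgk2 and Pgk1 were together in 0 of 147 cells of cluster 2, which at that depth allows a share of up to 2.04%, and 0 of 291 of cluster 1, which allows up to 1.03%, while in cluster 2 there were 19 cells with Pgk2 only and 2 with Pgk1 only. With so few cells holding either form, this count of 0 does not show that the forms exclude each other. Gapdhs and Gapdh were together in 7 cells of cluster 2, with 10 cells of Gapdhs only and 33 of Gapdh only. Ldhc and Pdha2 were together in 94.6% of cells of cluster 2, again the share with Pdha2, and 73.5% of cluster 1.

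Among the somatic-like classes, Gapdh and Pgk1 far outnumbered their testis forms, while Ldhc and Ldha were close in several. Gapdh was at 572 CPM in Leydig-like, 657 CPM in Sertoli-like, 518 CPM in macrophage-like, 349 CPM in stroma-like and 258 CPM in myoid-like cells. Ldha was at 55.3 CPM in Sertoli-like cells and 84.7 to 94.4 CPM in the other 4 of these classes, and Ldhc was above it in stroma-like cells, at 97.7 against 84.7 CPM. In Sertoli-like cells Pdha2 and Pdha1 were both at 15.6 CPM. Set beside free RNA they differed, with Pdha2 at 0.409 times (0.262 to 0.609) and Pdha1 at 3.03 times the expected level. Among these 5 classes Pgk1 was highest in Leydig-like cells at 88.5 CPM and lowest in macrophage-like cells at 41.3 CPM, and Pdha1 was highest in myoid-like cells at 84.5 CPM and lowest in Sertoli-like cells at 15.6 CPM. The 15 lymphocyte-like cells had higher levels, 229 CPM of Pgk1 and 196 CPM of Pdha1, on 7 and 6 UMIs. Ldha too was higher outside the 5 classes, at 199 CPM (65 UMIs) in endothelial-like and 294 CPM (9 UMIs) in lymphocyte-like cells. In pachytene-like cluster 2, Gapdh was 10.4-fold, Pgk1 12.5-fold and Pdha1 33.9-fold lower than in Leydig-like cells.

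In somatic-like classes Ldhc did not exceed free RNA. It was at 0.308 times the expected level in Sertoli-like and 0.830 times in myoid-like cells. Endothelial-like cells had 339 CPM of Ldhc, but 89 of their 111 Ldhc UMIs came from 1 cell that also held 31 UMIs of Pdha2 and 3 of the pachytene marker Piwil1, and the level was 71.0 CPM without it. Leaving that cell out, 6 of the 10 genes, the testis forms, were higher by 2-fold or more in the germ-cell-like than the somatic-like cells, against 39.6% of 18402 genes, with ratios between 6.32 (Gapdhs) and 16.7 (Pgk2). Pachytene-like cells held most of these UMIs, 85.2% of all those of Ldhc in the cells used. In spermatogonium-like cells 0 of 9 tested were that much higher than in somatic-like cells, against 35.2%, and 3 were that much lower, against 25.2%. In all germ-cell-like cells 3 of the 10 were lower by 2-fold or more, against 25.5%, namely Gapdh (2.60-fold), Pgk1 (4.22-fold) and Pdha1 (4.69-fold). Ldha was 1.76-fold lower. The share of the pair was then 39.8% for Ldhc, 27.7% for Pdha2, 0.538% for Pgk2 and 0.118% for Gapdhs in somatic-like cells. Ldhc and Pdha2 were there at 0.605 and 0.674 times the free RNA level, so their shares are no measure of expression.

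The rest of the pathways showed both directions. Of the 32 genes of the glycolysis list, 24 had at least 20 UMIs over both stages. Of these, 11 were higher and 4 lower by 2-fold or more in pachytene-like cells, against 18.1% and 28.7% of all genes tested, with a median log2 ratio of 0.48 against -0.34. The list includes 7 of the 10 genes, and 5 of the 11 higher genes are among them. Pgam2, a phosphoglycerate mutase known from muscle, had the highest ratio, at 197 CPM in pachytene-like and 4.01 CPM in early-prophase-like cells, or 49.2 (37.0 to 66.8). Gpi1, glucose phosphate isomerase, was at 5.45 and 21.6 CPM, 3.97-fold lower.

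Of 15 genes of the pyruvate dehydrogenase list, 14 were tested, with 4 higher and 6 lower by 2-fold or more in pachytene-like cells against the same 18.1% and 28.7%, and a median log2 ratio of -0.34, the value over all genes tested. Dlat, the E2 subunit of the complex, was at 114 CPM in pachytene-like and 44.0 CPM in early-prophase-like cells. Pdk3, an X-linked kinase that inhibits the complex, was at 7.97 and 91.2 CPM, 11.4-fold lower. Mpc2, a subunit of the mitochondrial pyruvate carrier, had the highest level of the list, 999 CPM in pachytene-like and 546 CPM in early-prophase-like cells.

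Of 11 transport genes, 9 were tested, of which 3 were higher and 2 lower by 2-fold or more in pachytene-like cells, against 18.1% and 28.7%, with a median log2 ratio of -0.03. Slc16a7, the monocarboxylate transporter MCT2, was at 42.6 CPM in pachytene-like and 2.21 CPM in early-prophase-like cells. Slc2a5, the fructose transporter GLUT5, was at 27.8 and 1.47 CPM. Slc2a1, the glucose transporter GLUT1, was 2.51-fold lower and Emb, a partner of monocarboxylate transporters, 2.11-fold lower, while Bsg, another such partner, was at 1456 and 959.6 CPM. Of 6 genes of the PRPP synthetase list, Prps1l1 was higher and Prps1 lower by 2-fold or more, against the same 18.1% and 28.7%. The other 4 were within 2-fold.

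**Figure D5:**
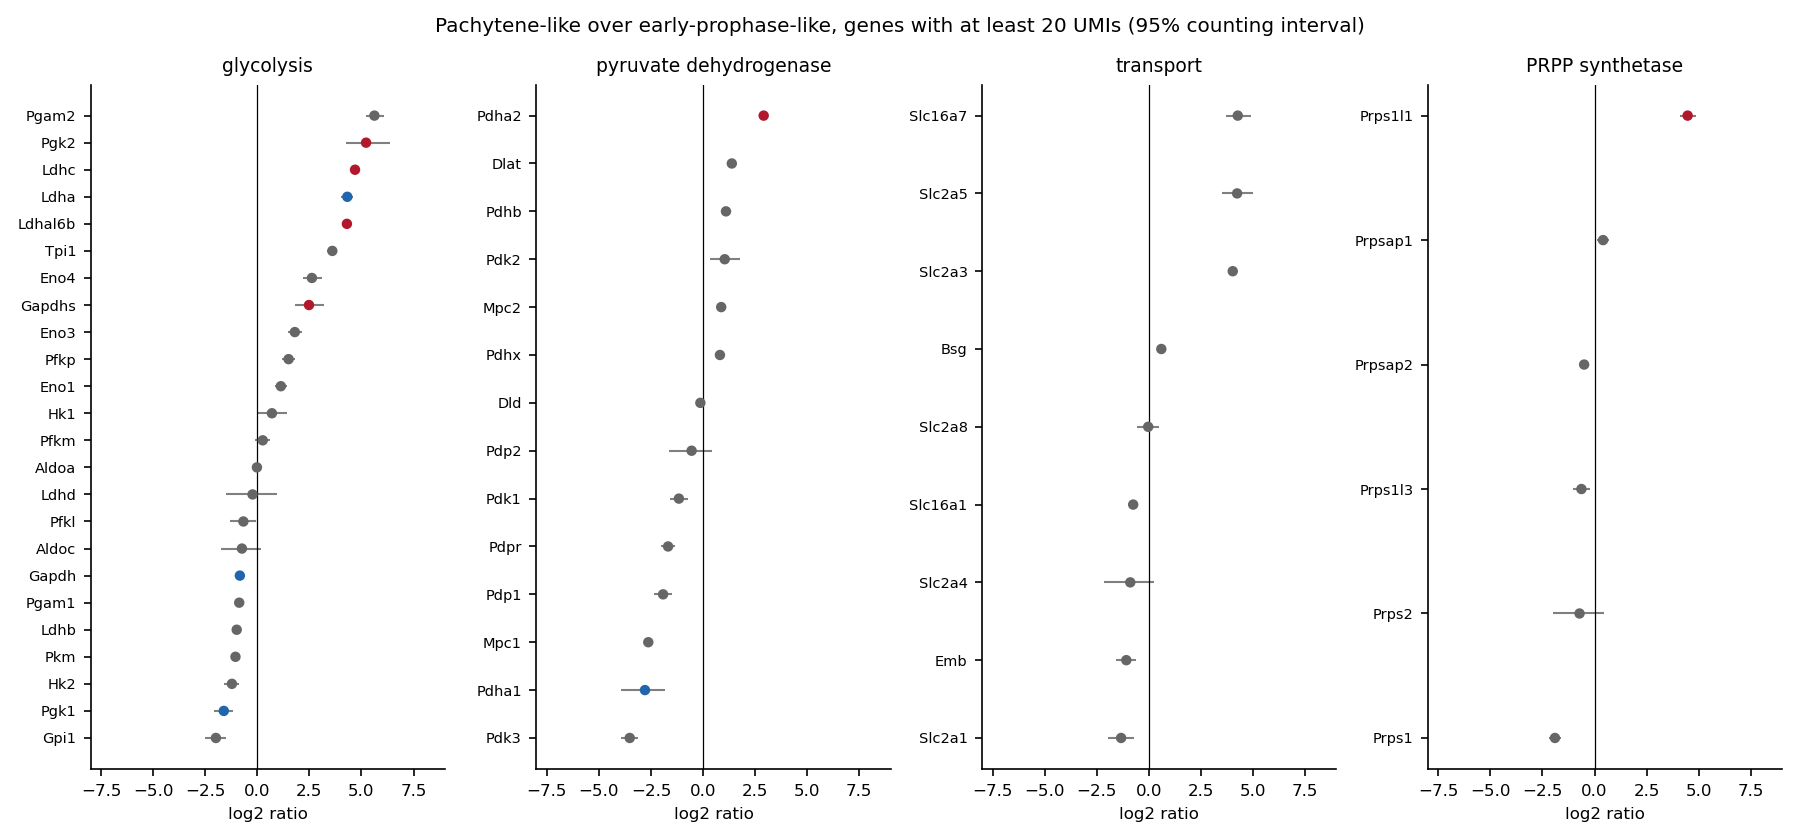
Log2 ratio of pachytene-like over early-prophase-like cells for the tested genes of the 4 pathway lists, with 95% counting intervals and a line at equal levels. Pgam2 and Pgk2 have the highest ratios of the glycolysis list, and Pdk3 has the lowest ratio of the pyruvate dehydrogenase list.

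The genes with the most similar levels over the 22 clusters were found by Pearson r of log2(CPM + 1) over 12693 genes, as a description of clusters that share 1 library. For Ldhc they were Crisp2 (r = 0.963), Fabp9 (0.960) and Rbakdn (0.954). For Pdha2 they were Dkkl1 (0.952), Crisp2 (0.949) and Clgn (0.947), so Crisp2 was on both lists. For Ldhal6b they were 1700019A02Rik (0.949), Morn5 (0.943) and Dnaaf4 (0.941), and for Prps1l1 Gtf2a1l (0.924), Spag6 (0.910) and Elfn2 (0.905). The values were lower for Gapdhs, with Gm16083 (0.885), Xrra1 (0.879) and 4932414N04Rik (0.870), and for Pgk2, with Ankrd60 (0.860), 1700108J01Rik (0.847) and Cdhr4 (0.847). Gapdhs had only 140 and Pgk2 236 UMIs in the cells used. Low counts and free RNA can both enter r, and what they contribute was not tested.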

How the data were processed

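The deposited values are whole UMI counts for each gene in each barcode, from Cell Ranger 7.1.0 according to the authors' file header. STAR and the mm10 build are named in the submitters' processing notes. The sources used here do not give how cells were called or multiply mapped reads handled. Per the labels, the extract protocol used the Chromium Next GEM 3' v3.1 kit. Barcode lists were read for 4 libraries and counts for 1.

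Of 15306 barcodes, 8121 were kept, with a minimum of 500 genes and 1000 UMIs and a mitochondrial share of 10% or less. Scrublet in scanpy 1.11.5 called 235 doublets (2.89%), which were removed. With 3000 variable genes, 30 principal components and 15 neighbours, the Leiden method (leidenalg 0.10.2 with igraph 0.11.9, resolution 1) found 22 clusters. The 10 genes, the pathway lists and all sex-linked or mitochondrial genes stayed out of this step. Clusters were named by their highest mean marker score, if this was at least 0.5 with 3 or more markers detected at 2-fold. Clusters with a median UMI count below that of all cells divided by 3 stayed unnamed (661, 122 and 104 cells). A spermatid name further needed a summed marker level above that of the pachytene list. These scoring choices were made with the clusters in view, names rest on rebuilt clusters, and other names may result elsewhere.

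UMIs were summed per cluster and given as CPM. Intervals are exact Poisson for levels, exact conditional binomial for ratios and Clopper-Pearson for shares, at 95.0%. With 1 library per group no test was made. Free RNA was estimated from the 3592 barcodes of under 1000 UMIs, which may include shallow cells, and scaled by Leydig genes in germ classes and by germ genes in somatic classes. Ratio and share intervals were tested on simulated data. Python 3.11.15, numpy 2.4.6, scipy 1.17.1, pandas 2.3.3, scikit-learn 1.9.0 and matplotlib 3.10.9 were used.

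The 10 genes and the lists were chosen with earlier results of these data known. In each pathway list the rule named the 2 largest ratios of at least 1.5-fold in each direction and the gene of highest CPM. For each testis form it named the 3 genes of highest r among those with at least 200 UMIs. Ldhb, Piwil1 and Stra8 are named outside this rule, having been picked with their values known. Alternatives were looser and stricter cell filters, doublets kept, resolution 2, 2000 variable genes, equal weight per cell and free RNA subtracted. Leaving out early-prophase-like cluster 1 was added after the data had been seen.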

Additional observations from a re-analysis of the deposited data

How the results depend on the processing

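No paired analysis was possible because each group has 1 library. The testis-form shares in pachytene-like cells were 94.2% for Ldhc with Ldha, 80.5% for Pgk2 with Pgk1, 99.8% for Pdha2 with Pdha1 and 17.4% for Gapdhs with Gapdh. With at most 5% mitochondrial UMIs they were 93.3%, 86.0%, 100% and 6.73%, over 178 pachytene-like cells. With equal weight per cell the Ldhc share was 95.2% and the Pgk2 share 70.5%. With 2000 variable genes, which put 739 cells in the class, the Pgk2 share was 71.8%. With free RNA subtracted the shares were 88.3% for Pgk2, 100% for Pdha2 and 26.8% for Gapdhs. The other alternatives left each share within its interval. The cause of these shifts was not tested.

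Of 79 ratios of the 10 genes under 8 alternatives, pachytene-like over early-prophase-like, 53 stayed within the interval of the reported value, 26 left it and 0 turned round. With free RNA subtracted the ratio was 127 for Ldhc and 231 for Ldha, and none could be given for Pdha1, which had no UMIs left in pachytene-like cells. With at most 5% mitochondrial UMIs it was 1.57 for Gapdhs, below 2-fold, and with equal weight per cell 10.1 for Ldha. Without early-prophase-like cluster 1 it was 23.2 for Ldhc and 6.06 for Pdha2. Under the looser filters, scrublet called 0 of 13862 cells and so did not work there. Depth limits Pdha1, Pgk1 and Gapdhs most, with 9, 50 and 86 UMIs in pachytene-like cells.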

Other observations

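Barcodes with at least 20 UMIs of Ldhc numbered 208 in the whole library. Of these, 146 were in pachytene-like cluster 2, 49 in pachytene-like cluster 1 and 5 in other clusters that were used, among them 3 in spermatogonium-like cluster 2. The remaining 8 barcodes were not used, 2 of them for more than 10% mitochondrial UMIs.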
